A study of Mus musculus with 2 samples.

Results

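Nodal and 8 genes that act around it in signaling, namely Gdf1, Gdf3, Inhba, Tdgf1, Lefty1, Lefty2, Cer1 and Foxh1, were followed in teratomas from wild-type and Sox2-mutant mouse embryonic stem cells (ESCs). They were chosen by gene symbol as ligands, antagonists and effectors of the pathway. Each of the 9 symbols matched 1 of the 45777 genes listed. The study compared 1 teratoma library of E14, a wild-type mouse ESC line (the wild-type library), with 1 of E14-Sox2TA/WT, its edited derivative (the mutant library). In E14-Sox2TA/WT, CRISPR-Cas9 editing made the substitution T258A in 1 Sox2 allele, and the other allele is wild type. Edited cells were grown out as clones from single cells, and how many clones entered the teratomas is not given in the sources used here. The substitution replaces a threonine that can carry O-GlcNAc, a single sugar, with alanine. Per the study's methods, cells of each line were placed under the skin of 3 BALB/c-nu mice, a strain without T cells, and teratomas were harvested 14 days later. Both groups thus share the host strain, the site and the harvest day, and host cells can add to each library. How many tumours entered a library is not given in the sources used here. The labels name the tissue as teratoma, while their extraction text speaks of an ESC line.

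Nodal is a secreted ligand of the TGF-beta family that binds type I and type II activin receptors together with the membrane-anchored co-receptor Tdgf1 (Cripto). The receptors phosphorylate Smad2 and Smad3, which join Smad4 and, with DNA-binding partners such as Foxh1, switch on target genes. Nodal, Lefty1 and Lefty2 are themselves targets, so the pathway drives its own ligand and its own inhibitors. In the early mouse embryo it sustains the epiblast and patterns mesoderm and endoderm, and its ligand, co-receptor and Lefty genes are also active in cultured ESCs.

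The libraries were of like depth, with 50529171 gene-assigned reads for the wild type and 49030281 for the mutant. Levels are given as TPM, reads scaled by gene length and set to a fixed sum per library, beside the reads themselves. With 1 library per group there was no replicate check and no p-value. The 95% intervals cover counting error only, not the spread between tumours. Sox2 had a TPM of 246 in the wild-type library and 130 in the mutant library. The files do not separate its alleles, so this level does not check the edit. The 2 libraries also differed beyond the edited gene. Reads of the Y-linked genes Eif2s3y, Ddx3y, Uty and Kdm5d summed to 5453 in the wild-type library and to 0 in the other. Mitochondrial genes took 5.17% of TPM in the wild-type library and 9.70% in the mutant library. The part of these differences in the results was not tested.

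Most of the 9 chosen genes had higher levels in the mutant (E14-Sox2TA/WT) library. The 43 further pathway genes, given below, did not share this, with 2 higher and 5 lower. The rule used follows the study's methods, with a TPM ratio above 2 for genes that reached a TPM of 10 in one library or both. The methods do not say which measure the fold change was taken on, so these are not the study's own calls. By this rule, 7 of the 9 genes were higher and 0 were lower. These were Nodal, Gdf3, Tdgf1, Lefty1, Lefty2, Cer1 and Foxh1. Over all 11578 genes that reached this TPM, 10.8% were higher and 18.7% were lower by the same rule. Gdf1 and Inhba stayed under a TPM of 10 in both libraries, and 5 of the 7 that reached it did so in the mutant library alone. A rule without a TPM minimum was therefore also read, in which the whole counting interval had to lie beyond 2-fold. It also gave 7 genes higher and 0 lower, with Inhba in place of Cer1, against 14.8% higher and 11.3% lower of 29148 genes. On the log2 scale with 1 added to each TPM, the median ratio was 2.12 over the 9 genes and -0.18 over all genes past the TPM minimum. Summed over the 9 genes, TPM was 74.0 in the wild-type library and 393 in the mutant library. In bulk RNA, fewer cells of a type and less RNA per cell cannot be told apart, here or in any result that follows.

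**Figure D1:**
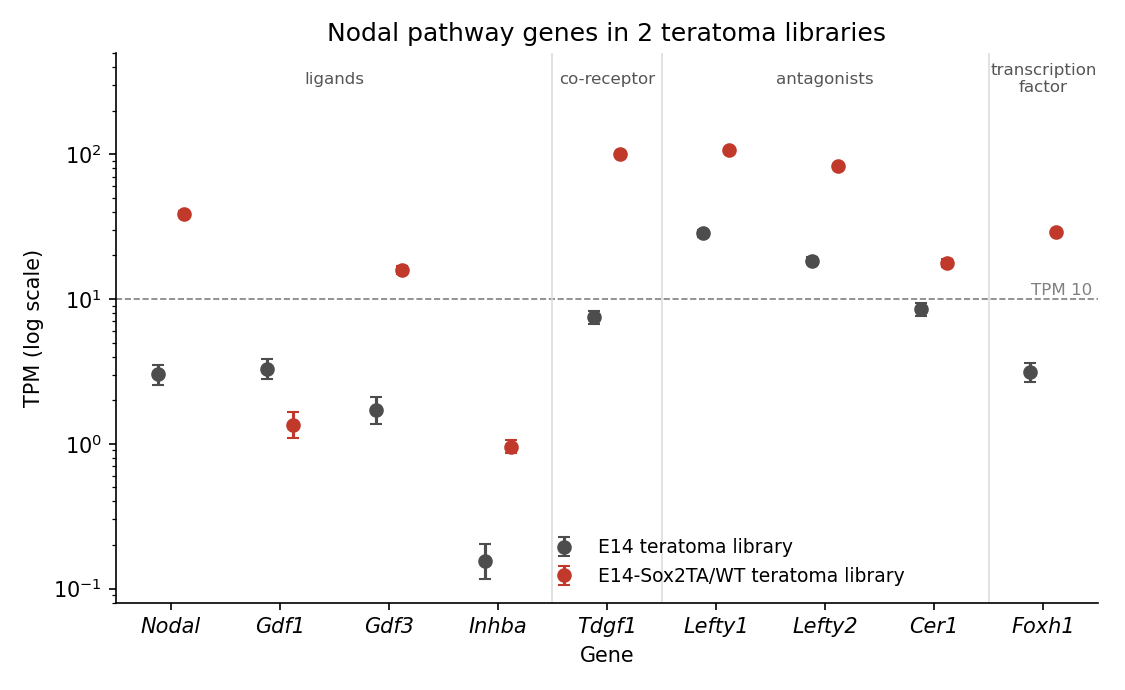
TPM on a log axis of the 9 Nodal pathway genes, by role, in the E14 library (grey) and the E14-Sox2TA/WT library (red). Points are single libraries, bars are 95% exact Poisson intervals for counting error, and the dashed line marks a TPM of 10. Gdf1 alone is lower in the E14-Sox2TA/WT library, and Tdgf1 and Nodal are farthest apart, at 13.3-fold and 12.9-fold.

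Among the ligands, Nodal itself had 152 reads and a TPM of 3.01 in the wild-type library, against 2192 reads and a TPM of 38.9 in the mutant library. It was 12.9-fold higher (95% counting interval 10.97 to 15.4). Of the genes past the TPM minimum, 202 had a ratio at least as large. Nodal lies at chr10:61417972-61425338 of GRCm38. Its flanking genes moved little. Eif4ebp2, which encodes an inhibitor of translation initiation and starts 3153 bases downstream, had a TPM of 62.1 and 54.7, and Pald1, on the other side, of 32.8 and 33.0.

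Gdf3, a ligand expressed in pluripotent cells that works through the same receptors and Tdgf1, had 88 reads and a TPM of 1.72 in the wild-type library. In the mutant library it had 889 reads and a TPM of 15.9, 9.24-fold higher (7.42 to 11.6). The gene lies at chr6:122605403-122610087, in a neighbourhood that holds other genes of pluripotent cells. Dppa3, a marker of pluripotent and germ cells 16337 bases away, went from a TPM of 5.30 to 39.6, 7.47-fold higher (6.09 to 9.23). Apobec1, the RNA-editing deaminase on the other side, had a TPM of 12.99 and 22.5, within 2-fold.

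Inhba encodes the beta A subunit of activin A, which signals through the same Smads without a co-receptor. It had few reads, 53 in the wild-type library and 360 in the mutant library, for a TPM of 0.155 and 0.955. The ratio was 6.16 (4.61 to 8.38), but the gene stayed the lowest of the 9 in both libraries. With 1 added to each TPM the ratio fell to 1.69. Its FPKM values imply a gene length of 15769 bases, against 6390 for the longest coding transcript in GENCODE, so its TPM is low for its reads. Its locus is chr13:16004256-16031609, where it overlaps the pseudogene B230303A05Rik by 19168 bases, which had 0 reads in the wild-type library and 8 in the mutant library.

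Gdf1, the ligand that pairs with Nodal in the embryo's left-right axis, went the other way. It had 156 reads and a TPM of 3.28 in the wild-type library, and 95 reads and a TPM of 1.36 in the mutant library, 2.42-fold lower (1.86 to 3.15). It was below the TPM minimum, and with reads scaled by library total it was only 1.59-fold lower, since the length implied by its FPKM values was 2195 bases in one library and 2901 in the other. Gdf1 (chr8:70315775-70331592) shares its locus with Cers1, a ceramide synthase gene. Every 50-base stretch of its GENCODE transcript (100%) also occurs in a transcript of Cers1, so reads of the pair cannot be assigned with certainty. Cers1 had a TPM of 26.8 in the wild-type library and 8.03 in the mutant library, 3.33-fold lower (3.03 to 3.66). Summed, Gdf1 and Cers1 had a ratio of 0.313. Cope, a coatomer subunit gene 2773 bases away, was 2.04-fold lower, with a TPM of 278 and 136, and Upf1, which overlaps Gdf1 by 100 bases, had a TPM of 41.0 and 27.0. Genes of chromosome 8 had a median log2 ratio of -0.67, and relative to it Gdf1 stood at -0.19.

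The shares of the ligands differed mainly in Gdf1, whose reads are uncertain. In the wild-type library, Gdf1 held 40.2% of the TPM of the 4 ligands and Nodal 36.9%. In the mutant library, Nodal held 68.2%, Gdf3 27.8% and Gdf1 2.38%. Without Gdf1, the shares were closer, with Nodal at 61.6% and 69.8% and Gdf3 at 35.2% and 28.5% of the remaining ligands. Counted with 6 further ligands of the Smad2 and Smad3 branch (Inhbb, Gdf11, Mstn, Tgfb1, Tgfb2 and Tgfb3), Nodal's share was 4.69% in the wild-type library and 38.6% in the mutant library. The largest share of these 10 ligands in the wild-type library was that of Tgfb2, at 30.8%.

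RefSeq promoter windows, 250 bases before to 50 after a transcription start, were given for Nodal, Gdf1 (2 windows), Inhba, Tdgf1 and Cer1, and not for Gdf3, Lefty1, Lefty2 and Foxh1. They were searched on both strands for letters bound by the pathway's factors and by Sox proteins. The Foxh1-type letters AATCCACA and AATACACA and the Smad palindrome GTCTAGAC were in 0 of the 6 windows, and in 0.855%, 0.980% and 0.213% of all 32851 promoters. The Sox-type letters AACAAAG were in 2 of the 6 windows, those of Nodal and Inhba, and in 5.85% of all promoters. AACAATG, the other Sox-type motif, was in 0 of the 6 and in 3.78% of all. Shown are the 250 bases upstream of Nodal (chr10:61417722-61417971, plus strand) and Inhba (chr13:16011601-16011850, plus strand), with the match in capitals, and of Tdgf1 (chr9:110946159-110946408, minus strand), the gene with the largest ratio, which holds none. Coordinates are of GRCm38.p6 and each sequence reads 5′ to 3′ on the strand of the gene. The match lies on the opposite strand and starts 242 bases upstream of the Nodal start and 228 bases upstream of the Inhba start used by RefSeq for this window, an internal one that lies inside the span listed for the gene. It is a match of letters, not a measured binding site.
Nodal: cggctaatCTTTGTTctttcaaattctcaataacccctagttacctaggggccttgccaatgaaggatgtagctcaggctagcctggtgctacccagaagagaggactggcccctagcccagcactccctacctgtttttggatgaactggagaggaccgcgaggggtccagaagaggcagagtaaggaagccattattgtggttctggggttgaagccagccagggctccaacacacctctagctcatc
Inhba: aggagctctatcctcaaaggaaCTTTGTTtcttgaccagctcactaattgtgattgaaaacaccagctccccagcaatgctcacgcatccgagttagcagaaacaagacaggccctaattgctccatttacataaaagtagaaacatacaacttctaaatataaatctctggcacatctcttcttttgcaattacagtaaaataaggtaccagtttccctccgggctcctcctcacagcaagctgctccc
Tdgf1: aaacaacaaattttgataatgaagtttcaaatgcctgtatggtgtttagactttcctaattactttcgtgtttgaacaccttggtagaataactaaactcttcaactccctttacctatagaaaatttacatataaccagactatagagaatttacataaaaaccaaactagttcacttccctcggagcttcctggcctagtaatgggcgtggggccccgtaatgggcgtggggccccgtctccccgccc

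Tdgf1, the co-receptor that Nodal and Gdf3 need, had the largest ratio of the 9 genes. It had 347 reads and a TPM of 7.48 in the wild-type library, and 5155 reads and a TPM of 99.7 in the mutant library, 13.3-fold higher (11.96 to 14.9). Tdgf1 and Nodal kept nearly the same proportion within each library, 2.49 units of Tdgf1 TPM per unit of Nodal in the wild-type library and 2.56 in the mutant library. The quotient of these was 1.03 (0.846 to 1.26). The gene lies at chr9:110939608-110946158, and 12.5% of the 50-base stretches of its transcript also occur in its pseudogene Tdgf1-ps1. The nearest gene with reads, Lrrc2 at 5387 bases, had 17 reads in the wild-type library and 151 in the mutant library. The related co-receptor Cfc1 (Cryptic) had a TPM of 2.89 and 6.19, below the TPM minimum.

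The antagonists were the most abundant members in the wild-type library and increased less than the ligand they restrain. Lefty1, which blocks Nodal and its co-receptor outside the cell, had 1106 reads and a TPM of 28.3 in the wild-type library, and 4626 reads and a TPM of 106 in the mutant library, 3.75-fold higher (3.51 to 4.004). Lefty2, its close copy, which acts the same way, had 1098 reads and a TPM of 18.4, and 5555 reads and a TPM of 83.5, 4.53-fold higher (4.25 to 4.84). The ratio of Lefty1 to Lefty2 was 1.54 in the wild-type library and 1.27 in the mutant library. Cer1, a cystine-knot inhibitor of Nodal made by the anterior visceral endoderm, had 356 reads and a TPM of 8.47, and 832 reads and a TPM of 17.8. It was 2.096-fold higher (1.85 to 2.38), an interval that includes the threshold of 2. Dand5, its relative that limits Nodal at the node, was 3.87-fold lower, with a TPM of 15.1 in the wild-type library and 3.91 in the mutant library.

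Lefty1 (chr1:180935022-180938401) and Lefty2 (chr1:180893108-180899107) lie 35915 bases apart and are close copies, which matters for how reads can be assigned. Their coding sequences, both 1104 bases long in GENCODE, were 91.8% identical. Of the 50-base stretches of the whole transcripts, 17.9% of those of Lefty1 occurred in Lefty2 and 11.6% of those of Lefty2 in Lefty1. The window of 120 coding bases in which the pair is least alike is printed for each, since reads from it can tell the copies apart, with differing bases in capitals. It spans coding bases 46 to 165, near the start of the protein, and differs at 34 positions.
Lefty1, bases 46 to 165: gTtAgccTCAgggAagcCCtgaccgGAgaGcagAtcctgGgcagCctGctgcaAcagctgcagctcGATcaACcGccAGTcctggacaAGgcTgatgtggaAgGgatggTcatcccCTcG
Lefty2, bases 46 to 165: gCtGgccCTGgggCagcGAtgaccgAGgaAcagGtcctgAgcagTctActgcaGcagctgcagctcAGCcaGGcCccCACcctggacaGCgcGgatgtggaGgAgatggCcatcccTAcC

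With TPM summed over both rows, the Lefty genes had a ratio of 4.06. Summed reads, which do not depend on how reads were split between the pair, were 2204 in the wild-type library and 10181 in the mutant library, a ratio of 4.76 scaled by library total and 4.36 by TMM factors. On the far side of Lefty1, Tmem63a, which encodes a membrane channel, was 2.50-fold higher, with a TPM of 4.85 and 12.1. Of the non-coding genes beside the pair, Gm39714 next to Lefty2 had 11 and 131 reads, and Gm39715, which overlaps Lefty1, had 2 and 44.

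Foxh1, the forkhead partner that recruits the Smads to DNA, had 188 reads and a TPM of 3.11 in the wild-type library. In the mutant library it had 2269 reads and a TPM of 29.0, 9.32-fold higher (8.03 to 10.9). Its FPKM values imply a gene length of 2791 bases in the wild-type library and 3246 in the mutant library. Its longest coding transcript in GENCODE has 1365, so its TPM is low for its reads. Foxh1 (chr15:76667829-76671614) overlaps Kifc2, a kinesin gene, by 368 bases, and the sources used here do not say whether reads were counted by strand. Kifc2 went the other way, from a TPM of 24.1 to 5.61, 4.29-fold lower. The other flanking genes, Ppp1r16a at 29 bases and Cyhr1, had a TPM of 48.9 and 43.1, and of 81.3 and 60.3. The genes of chromosome 15 had a median log2 ratio of 0.28, and Foxh1 stood 2.59 above it.

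**Figure D2:**
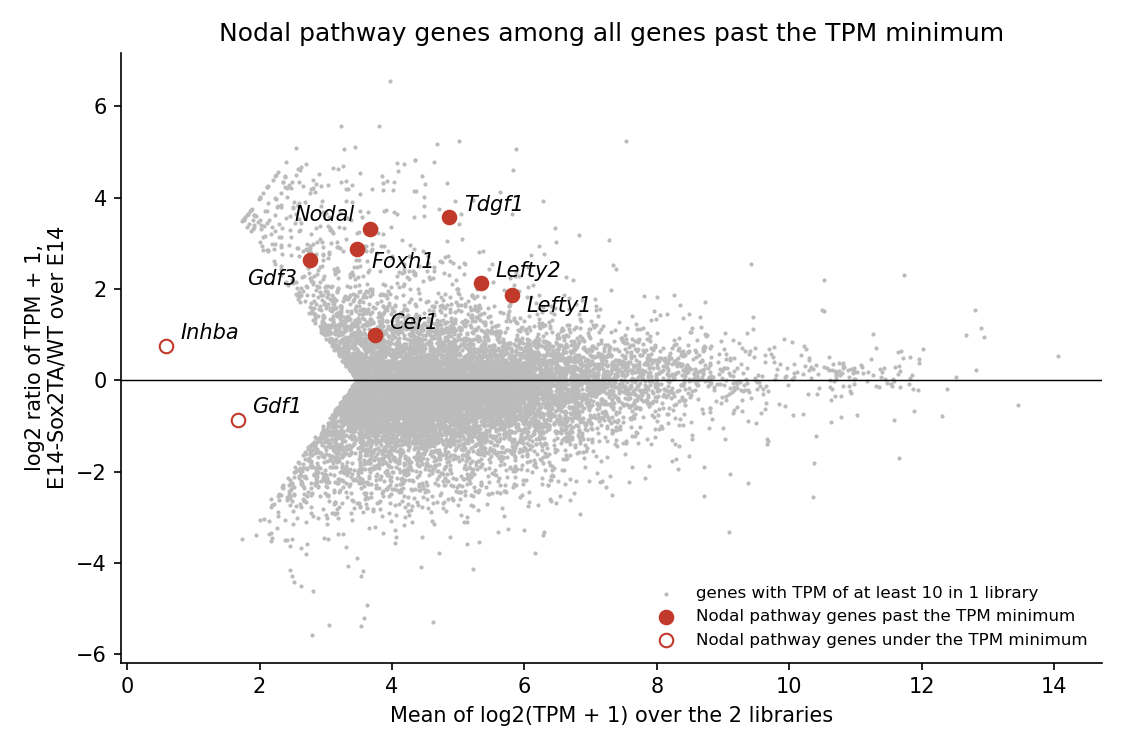
Log2 ratio of TPM + 1 (E14-Sox2TA/WT over E14) against the mean log2(TPM + 1) of the 2 libraries, for the 11578 genes that reached a TPM of 10 (grey) and the 9 Nodal pathway genes (red, open where under that TPM). The 7 filled red points lie between 0.99 and 3.57 on the vertical axis, and Gdf1 lies at -0.86.

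The order of the genes by TPM also changed. In the wild-type library it ran Lefty1, Lefty2, Cer1, Tdgf1, Gdf1, Foxh1, Nodal, Gdf3, Inhba, where the counting intervals of Cer1 and Tdgf1 overlapped, as did those of Gdf1 with Foxh1 and of Foxh1 with Nodal. In the mutant library it ran Lefty1, Tdgf1, Lefty2, Nodal, Foxh1, Cer1, Gdf3, Gdf1, Inhba, and only Cer1 and Gdf3 overlapped. Tdgf1 thus moved from position 4 to 2 and Nodal from 7 to 4, while Cer1 went from 3 to 6. These positions depend on the gene lengths behind TPM. By reads, Foxh1 stood above Nodal in both libraries, with 188 against 152 and 2269 against 2192.

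The balance of inhibitors to ligand was lower in the mutant library. Lefty1 and Lefty2 together had 15.5 times the TPM of Nodal in the wild-type library and 4.87 times in the mutant library, 3.19-fold lower (2.69 to 3.78). The ratio of Cer1 to Nodal was 2.82 and 0.456, 6.17-fold lower (5.02 to 7.58). All 3 antagonists over all 4 ligands gave 6.77 and 3.63. The 4 ligands include Gdf1, whose reads are uncertain and which held 40.2% and 2.38% of their TPM. Foxh1 and Gdf3 stayed closer to Nodal, with ratios of 1.03 and 0.744 for Foxh1 and of 0.571 and 0.408 for Gdf3. The ratios of Foxh1 also depend on its implied length, which differed between the libraries.

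Genes of undifferentiated cells were higher in the same library, and the Nodal pathway genes are also expressed in such cells. All 12 markers of pluripotent cells were higher by the rule, by 3.10-fold to 39.4-fold, and their summed TPM was 89.5 in the wild-type library and 1992 in the mutant library. All but Pou5f1 and Dppa5a reached the TPM minimum in the mutant library alone, which favours calls of higher. None had 0 reads in either library. Dppa5a, the most abundant of them, had a TPM of 29.1 and 1144, and Pou5f1 (Oct4), which defines the undifferentiated state, of 19.0 and 304. The ratio of Nodal was smaller than those of 9 of the 12 markers, that of Tdgf1 also than those of 9, that of Foxh1 and Gdf3 than those of 10, that of Lefty1 and Lefty2 than those of 11, and that of Cer1 than those of all 12.

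Relative to Pou5f1 in the same library, each of the 9 genes was lower in the mutant library. This follows from the reference gene, since Pou5f1 was itself 16.0-fold higher, more than any of the 9. Of the 12 markers of pluripotent cells, 9 had a larger ratio than Nodal and Tdgf1 and 3 a smaller one. Those 3 were Esrrb at 11.6, Dppa3 at 7.47 and Klf4 at 3.10. Relative to any of them, Nodal and Tdgf1 were higher in the mutant library. Nodal stood at 15.8% of Pou5f1 TPM in the wild-type library and 12.8% in the other, 1.24-fold lower (1.03 to 1.48), and Tdgf1 at 39.3% and 32.8%, 1.20-fold lower (1.05 to 1.37). Foxh1 was 1.72-fold and Gdf3 1.73-fold lower by this measure. The antagonists fell further behind, Lefty2 by 3.53-fold, Lefty1 by 4.27-fold and Cer1 by 7.63-fold, and of the other ligands Inhba was 2.59-fold and Gdf1 38.6-fold lower. How much of the members' higher levels goes with the markers of pluripotent cells was not tested.

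**Figure D3:**
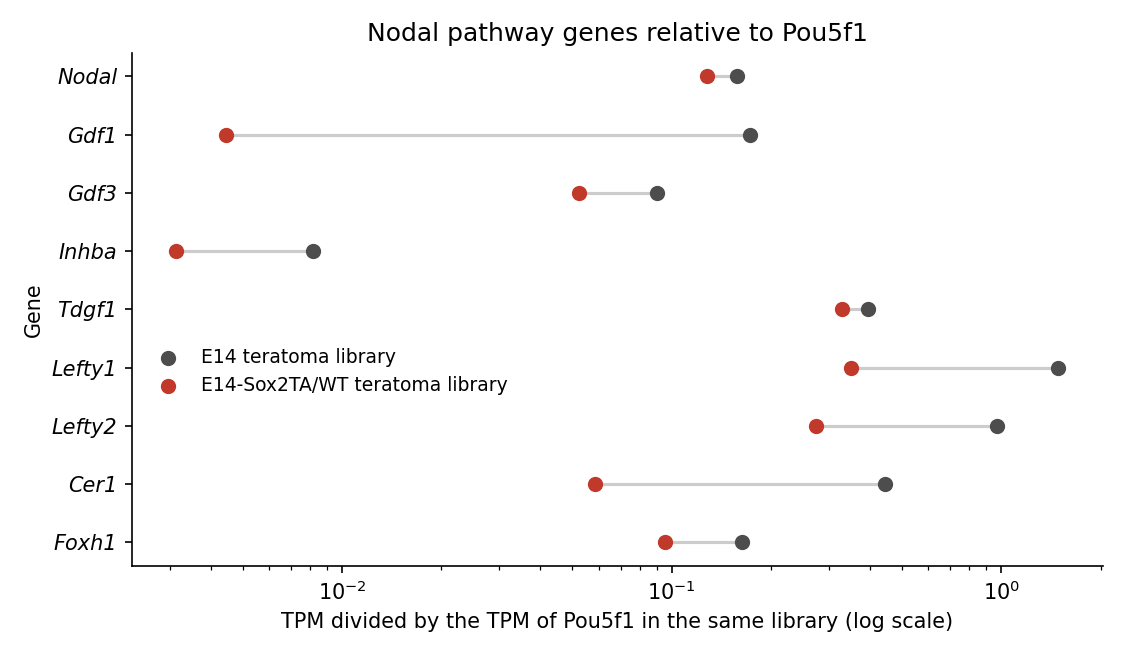
TPM of each Nodal pathway gene divided by the TPM of Pou5f1 in the same library, on a log axis, for the E14 library (grey) and the E14-Sox2TA/WT library (red), with 1 library per group. Every red point lies left of its grey point, closest for Tdgf1 and Nodal and farthest for Gdf1.

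Markers of other cell types that can express these genes were counted by the same rule, which called 10.8% of the genes past the TPM minimum higher. Of the 10 markers of visceral and anterior endoderm, the source of Cer1 in the embryo, 6 reached this minimum, 5 were higher and 0 lower. All 5 reached it in the mutant library alone, so the minimum itself favours such calls. Over all 10, 10 ratios were above 1 and 0 below. The summed TPM of the 10 was 45.3 and 387. Afp, the most abundant, had 31 reads in the wild-type library and 8490 in the mutant library. Of 8 germ cell markers, 4 reached the minimum and 3 were higher. Those 3 also reached it in the mutant library alone. Over all 8, 7 ratios were above 1 and 1 below. The summed TPM of the 8 was 19.3 and 117, led by Dazl at a TPM of 3.12 and 53.6. For the primitive streak, where Nodal is most active in the embryo, only 2 of 9 markers reached the minimum, and the rest could not be called. The 1 called higher was T (Brachyury) at a TPM of 4.73 and 40.1, which also reached it in the mutant library alone. Over all 9, 6 ratios were above 1 and 3 below. The sums were 49.7 and 72.4, and Msgn1 was at 0 reads in the wild-type library and 4 in the other. For notochord and floor plate, 3 of 5 reached the minimum and 1 was higher, again T. The sums were 94.5 and 167, and Shh had a TPM of 45.6 and 59.5.

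Lists for differentiated tissues and for cells that the host can supply were read in the same way. All 9 neuronal markers were lower, with a summed TPM of 3248 in the wild-type library and 483 in the mutant library, and Tubb3 went from 1722 to 170. Of 9 mesenchymal markers 5 were higher, with sums of 714 and 1713 and Col3a1 at 172 and 472. Of 11 markers of macrophages and neutrophils, 8 reached the TPM minimum and 2 were higher, with sums of 976 and 1660 and Lyz2 at 457 and 943. Of 5 endothelial markers, 3 reached the minimum and 0 were called, with sums of 81.6 and 86.8 and Pecam1 at 27.6 and 31.6. The part of these lists in the members' levels was not tested.

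The other genes of the pathway were counted by the same rule. Of 43 such genes, 28 reached the TPM minimum, 2 were higher and 5 were lower. Over all genes past this minimum, 10.8% were higher and 18.7% were lower. The median log2 ratio over the 43 was -0.05. The genes higher were Tgif1 and T, and the genes lower were Dand5, Inha, Tgfb2, Zfyve9 and Lhx1. The split changed with the settings, to 4 higher and 4 lower by the ratio of FPKM and to 7 higher and 6 lower with a TPM minimum of 1.

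Of the receptors and the other co-receptor, 3 of 5 reached the TPM minimum and 0 were called. The type I receptor Acvr1b had a TPM of 38.9 in the wild-type library and 27.3 in the mutant library. The type II receptor Acvr2a had a TPM of 19.0 and 12.8. Nodal thus stood at 7.73% of the TPM of Acvr1b in the wild-type library and at 143% in the mutant library. Of the convertases that cleave the Nodal precursor, 1 of 2 reached the minimum, Furin at a TPM of 19.8 and 16.9, and it was not called.

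Of 5 other extracellular inhibitors, 3 reached the minimum, of which 2 were lower. These were Dand5 and Inha, the inhibin alpha subunit, which was 3.15-fold lower at a TPM of 20.5 and 6.49. Of 6 other ligands of the branch, 3 reached the minimum and 1 was lower. It was Tgfb2, with a TPM of 19.7 and 9.69, 2.04-fold lower (1.91 to 2.17, an interval that includes the threshold). Tgfb1 had a TPM of 6.30 and 12.2, within 2-fold. Inhbb, the activin beta B subunit and nearest relative of Inhba here, had a TPM of 9.09 and 3.30, below the minimum. Of 4 TGF-beta receptors, 3 reached the minimum and 0 were called, with Tgfbr1 at a TPM of 40.5 and 35.5, Tgfbr2 at 17.3 and 31.0 and Eng at 12.5 and 18.8.

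Of 11 Smads and nuclear partners, 10 reached the TPM minimum, 1 was higher and 1 was lower. Tgif1, a homeodomain corepressor of the Smads, had a TPM of 37.5 and 91.0, 2.43-fold higher (2.29 to 2.58). Zfyve9, an adaptor that brings Smad2 and Smad3 to the receptor, had a TPM of 27.6 and 11.2, 2.46-fold lower. Drap1, a corepressor that binds Foxh1 and the most abundant of the list, had a TPM of 169 and 118.

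Of 10 known targets of Nodal in the embryo, 5 reached the TPM minimum, of which 1 was higher and 1 was lower. Over all 10, 6 ratios were above 1 and 4 below. Among those under the minimum, Sox17 was 3.80-fold higher (3.25 to 4.47) and Wnt3 1.87-fold lower (1.56 to 2.24). T, the mesoderm factor, was 8.48-fold higher (7.40 to 9.74). Lhx1, a factor of the node and anterior mesendoderm, was 3.78-fold lower, with a TPM of 21.0 and 5.55. Eomes, Foxa2, Sox17 and T are also markers that the study itself measured in these teratomas, so the list is not independent of it.

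**Figure D4:**
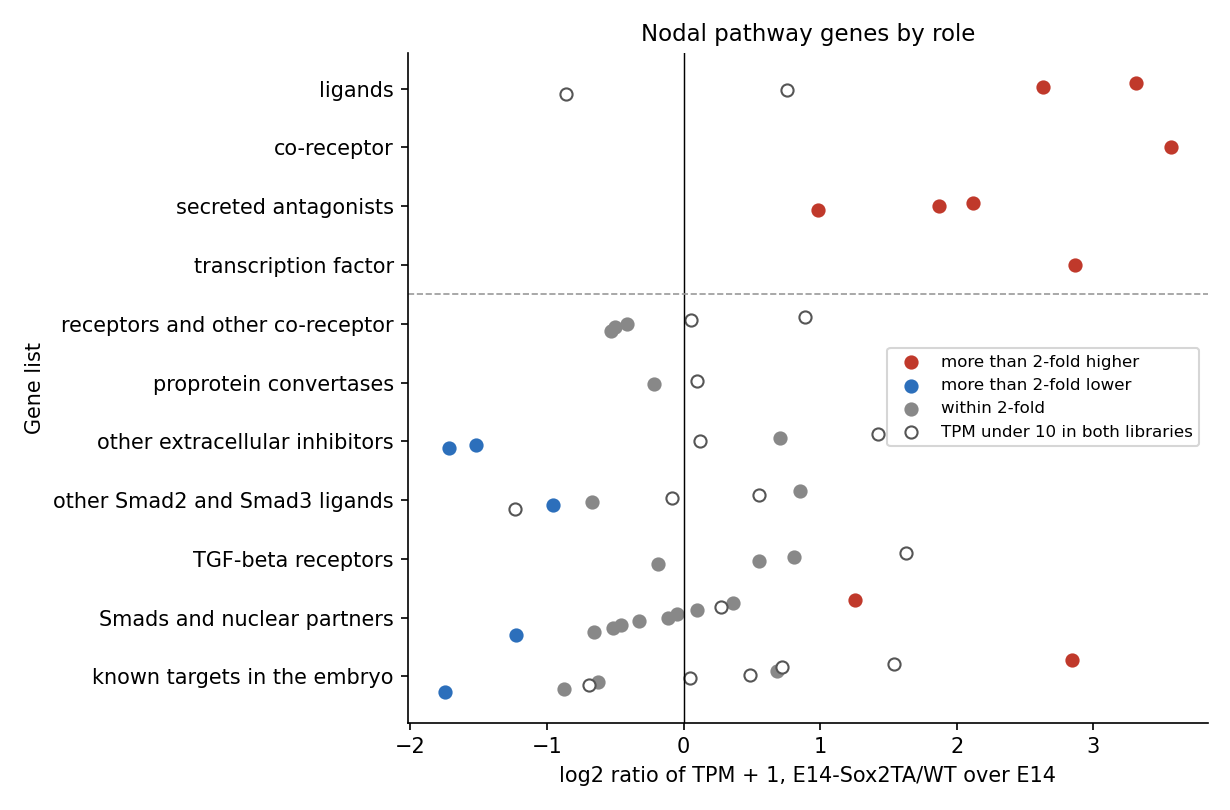
Log2 ratio of TPM + 1 (E14-Sox2TA/WT over E14) of each Nodal pathway gene and of 43 further pathway genes, 1 point a gene, in rows by role with the 9 members above the dashed line. Red and blue mark genes called higher and lower, grey those within 2-fold, and open points those with a TPM under 10 in both libraries. There are 7 red points above the line, and 2 red and 5 blue points below it, a balance that became 4 and 4 by the ratio of FPKM.

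Within 50000 bases of the 9 genes, 46 other genes were listed, of which 24 reached the TPM minimum, 3 were higher and 3 were lower. The same rule called 10.8% higher and 18.7% lower of all genes that reached it. The genes higher were Dppa3 beside Gdf3, Tmem63a beside Lefty1 and Slc39a4 near Foxh1, and the genes lower were Cers1 and Cope at the Gdf1 locus and Kifc2 at the Foxh1 locus. Slc39a4, a zinc transporter gene 49323 bases from Foxh1, was named after its values were seen, at a TPM of 3.55 and 31.5. Further nearest genes were Frem1 and Zdhhc21 beside Cer1, with a TPM of 6.94 and 12.9 and of 12.3 and 8.76, and 4 genes with at most 2 reads in either library, Gm51533, Gm22628, Gm32199 and Fam240a.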

How the data were processed

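RNA-seq of 1 E14 and 1 E14-Sox2TA/WT teratoma library was used, grouped by the labelled genotype. The authors deposited read counts per gene, which are whole numbers without normalization, together with FPKM, scaled by gene length and library size, and TPM, rescaled to a fixed sum. The quotient of TPM and FPKM was 2.33 for E14 and 2.03 for E14-Sox2TA/WT, so a ratio of TPM is 0.871 times the ratio of FPKM. The submitters' processing notes name bcl2fastq (2.20.0), Trimmomatic, HISAT2 (2.1.0), StringTie (2.1.3b), hg19 and mm10, without roles. Gene positions came from RefSeq on GRCm38, and transcripts from GENCODE on the same build.

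The members and the gene lists were chosen with earlier results of these data known. A gene was called by a TPM ratio above 2 and a TPM that reached 10 in one library or both. Intervals at 95% are Clopper-Pearson for the read ratio, moved onto the TPM ratio, exact Poisson for a level, and log-normal for a ratio within a library. They cover counting error only. The interval for the read ratio was tested on simulated counts that held counting error alone, scaled by library total. The move onto the TPM ratio and the other kinds of interval were not tested. For a gene at 0 reads in 1 library the median factor between read and TPM ratios was used, and a count of 0 allows up to 3 reads. Named were all members, the most abundant and the 2 most changed genes of each pathway list past the TPM minimum, the most abundant marker of each cell type, the genes nearest to a member on each side within 50000 bases, overlapping genes and close paralogs, Sox2 and Pou5f1. Alternatives were other scalings, among them edgeR (4.0.16) TMM factors, TPM minimums, thresholds and pseudocounts. Python (3.11.15), pandas (2.3.3), scipy (1.17.1) and R (4.3.3) were used. A few items that fall under the rule for named genes are not reported here.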

Additional observations from a re-analysis of the deposited data

How the results depend on the processing

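The call of 7 members higher and 0 lower rests on 1 library per group, so no replicate could be left out. No paired analysis was possible because each group has a single library. The median log2 ratio of the 9 members, 2.12, ranged from 2.12 to 2.63 over the alternatives, and was 2.30 when centred on the median of all genes. With a TPM of at least 10 required in both libraries, 2 members were higher, since fewer genes could be called. With a TPM minimum of 1 or with none, 1 member was lower, which was Gdf1. Of the pathway genes outside the members, 4 were higher and 4 lower by the ratio of FPKM, and 7 higher and 6 lower with a TPM minimum of 1, against 2 and 5. The other 36 of 41 alternatives for these counts and the median were labelled unchanged. For a count this meant the same count or one within 1.5 times it. For the median it meant a value between the log2 ratios of Inhba, 0.76, and Nodal, 3.32. That band is wide, so it is a weak check. Leaving out Gdf1 and Foxh1, which share their loci with other genes, or the members on chromosomes 8, 13 and 15 were alternatives chosen after seeing the data, and each gave 6 members higher and 0 lower. Foxh1 was the only called gene among those left out, so these counts were fixed and add no check, though they are among the 41. Of 57 alternatives for the fold of a single member, 0 changed direction and 24 moved it beyond its counting interval. Over the scalings, Nodal was 12.9-fold to 14.9-fold higher, Tdgf1 13.3-fold to 15.3-fold, Foxh1 9.32-fold to 12.4-fold and Cer1 2.096-fold to 2.41-fold. Depth limits Inhba, Gdf3 and Gdf1 most, with 53, 88 and 95 reads in their lower library.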
